A study of Mus musculus with 18 samples.

Results

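The 44 genes described here encode the machinery that copies DNA in S phase. They were chosen as a list of gene symbols, with no threshold on their values but with earlier results of these data known. Counts set beside those of all genes are therefore descriptions. All 44 were found among the 47729 gene identifiers of 18 mouse cochlear RNA-seq libraries. The libraries fall into 9 groups of 2. The 3 native groups, labelled Atoh1, Lgr5 and Sox2, are cells sorted from the cochlear sensory epithelium at postnatal day 2. The other 6 groups, labelled LCP, are primary cochlear organoids, which were expanded and then differentiated. Unsorted organoids were taken at day 0, 2, 4 and 10 of differentiation (LCP D0, D2, D4 and D10), and sorted organoid cells at D0 and D10. The labels give no mouse strain, reporter allele or genotype for any of these groups, do not spell out LCP and do not name the marker used to sort the organoids. A treatment text about tamoxifen and a stabilised β-catenin allele matches no sample name, and whether any animal here carried that allele or was treated is not given. The protocol states that each sample came from both ears of 1 pup. It does not say that the 2 libraries of a group came from different cultures, so p-values measure the spread between these libraries, which may be technical.

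DNA replication starts at origins, where the origin recognition complex, Cdc6 and Cdt1 load the ring of Mcm2 to Mcm7. Kinases then convert the ring into a moving helicase together with Cdc45 and the GINS complex, and polymerases held on the template by the Pcna clamp copy both strands. Most of these genes are transcribed under E2F control shortly before and during S phase, so their RNA is low in cells that have left the cell cycle. In the cochlea, hair cells and supporting cells leave the cell cycle before birth, and supporting cells that carry Lgr5 can be made to divide again in culture.

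Start regions of the genes were read from RefSeq on GRCm38.p6, in windows from 250 bases before to 50 bases after each start. A window was found for 35 of the 44 genes, and none for Gmnn, Mcm4, Gins1, Gins2, Gins4, Rfc2, Prim2, Pole and Ccne2. The windows were searched on both strands for the E2F words TTTCCCGC, TTTGGCGC, TTTCGCGC and TTTGCCGC. At least 1 word was found in 14 of the 35 genes (40%), against 2.6% of all 27025 genes with a window and 4.39% of the genes tested here. Words were found in Orc1, Cdc6, Cdt1, Mcm3, Mcm5, Mcm6, Mcm7, Gins3, Rfc3, Pola1, Pold1, Pold3, Pole2 and Lig1. No word lay in the windows of the nucleotide supply genes, the chromatin assembly genes, Ccne1 or E2f1, which says only that these letters are absent there. The regions below are shown because their genes moved together in the organoids. Within each of these roles the gene with the most matches was taken, and the one with the larger fall at D10 where genes tied. Each is printed from 250 bases before to 30 bases after the start, with the E2F words in capitals. They are Orc1 at chr4:108579204-108579483 on the plus strand, and Mcm6 at chr1:128359676-128359955, Rfc3 at chr5:151651179-151651458 and Pole2 at chr12:69228161-69228440 on the minus strand.
Orc1: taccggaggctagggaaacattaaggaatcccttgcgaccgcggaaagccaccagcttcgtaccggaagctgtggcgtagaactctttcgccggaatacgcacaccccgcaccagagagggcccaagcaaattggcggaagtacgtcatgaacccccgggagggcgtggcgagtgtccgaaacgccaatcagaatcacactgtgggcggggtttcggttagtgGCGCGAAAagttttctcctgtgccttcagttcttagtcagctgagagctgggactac
Mcm6: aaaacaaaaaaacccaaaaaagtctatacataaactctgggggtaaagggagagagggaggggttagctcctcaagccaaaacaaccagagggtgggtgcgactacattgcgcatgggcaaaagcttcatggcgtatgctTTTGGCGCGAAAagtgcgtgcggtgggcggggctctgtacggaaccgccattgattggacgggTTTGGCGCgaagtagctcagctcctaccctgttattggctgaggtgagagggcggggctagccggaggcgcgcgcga
Rfc3: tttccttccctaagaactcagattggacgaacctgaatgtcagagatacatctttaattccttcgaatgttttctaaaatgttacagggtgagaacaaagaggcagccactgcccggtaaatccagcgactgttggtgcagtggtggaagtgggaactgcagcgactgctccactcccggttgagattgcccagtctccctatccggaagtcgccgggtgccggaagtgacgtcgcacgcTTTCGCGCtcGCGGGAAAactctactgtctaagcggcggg
Pole2: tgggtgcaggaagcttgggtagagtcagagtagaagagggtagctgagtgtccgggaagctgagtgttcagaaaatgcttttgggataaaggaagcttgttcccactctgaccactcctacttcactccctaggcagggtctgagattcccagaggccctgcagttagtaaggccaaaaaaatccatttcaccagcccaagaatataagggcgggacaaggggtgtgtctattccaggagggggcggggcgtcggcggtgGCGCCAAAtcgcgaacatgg
In Orc1 the word began 27 bases before the start. Mcm6 held 3 words, 110, 106 and 47 bases before the start, of which the first 2 overlap. In Rfc3 the words began 10 bases before the start and at base 1 after it, and in Pole2 at base 11 after it. The Lig1 word began at base 27 after 1 of its starts and is not printed. Windows at the other Lig1 starts held no word. The CCAAT word was found in 54.3% of the 35 genes and in 41.1% of all genes. Words of the CHR type (TTTGAA or TTCGAA), an element known from genes of mitosis, were found in 20% of the 35 genes, in 21.7% of all genes and in 76.5% of 17 mitosis genes with a window. These matches are descriptions of the sequence and were not tested against binding.

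Values are in TPM, a transcript abundance corrected for gene length and library total, so levels of different genes can be compared. The depth of the libraries is unknown. Each library held 14381 to 16713 genes at 1 TPM or more, and 4.27 to 12.7% of its TPM was mitochondrial. Libraries of the same group correlated at r = 0.903 to 0.946 across genes, which are not independent replicates, and no library was identical to another. In these bulk libraries, fewer cells that carry an RNA and less of it per cell cannot be told apart.

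The labelled cell types were checked against their markers. The sum of 8 hair cell markers was 1561 and 2081 TPM for the Atoh1 sort, 647 and 1120 TPM for Lgr5 and 982 and 1148 TPM for Sox2, so hair cell RNA was present in all 3 native sorts. In unsorted organoids the same sum was 35.3 and 42.8 TPM at D0, 53.2 and 241 TPM at D2, 267 and 950 TPM at D4 and 511 and 774 TPM at D10. In sorted organoid cells it was 20.2 and 5.64 TPM at D0 and 1291 and 1016 TPM at D10. Hair cell markers were thus higher in every D4 and D10 library than in every D0 library, opposite to the replication genes below. The sum of 8 supporting cell markers ranged from 571 to 1402 TPM over the 4 D0 libraries and from 2211 to 7519 TPM over the 4 D10 libraries. Lgr5 was 44.6 and 30.1 TPM in the Lgr5 sort and 44.04 and 26.98 TPM in the Sox2 sort, and Sox2 was 57.3 and 27.2 TPM in the Sox2 sort and 139.9 and 45.7 TPM in the Lgr5 sort, so neither gene set its own sort apart from the other. In sorted organoid cells at D0 Lgr5 was 92.5 and 4.14 TPM, a wide gap between replicates. RNA of 7 mesenchyme markers summed to 55.6 to 151 TPM in native libraries and to 2.00 to 13.8 TPM in organoids, with Col3a1 at 0 in both sorted D0 libraries. The 5 endothelial markers summed to 39.2 to 70.5 TPM in the D0 libraries, with Cdh5 at 0 in all 4, and to 4.37 to 17.5 TPM in the D10 libraries. The 6 glial markers summed to 120.7 to 397 TPM over the D0 libraries, 63.9 to 364 TPM over the D10 libraries and 86.3 to 992 TPM over the native libraries. The 6 neuronal markers summed to 1.79 to 8.53 TPM at D0, with Neurod1 at 0 in both sorted libraries, to 69.8 to 313 TPM at D10 and to 79.4 to 283 TPM in native libraries. The 5 immune markers stayed between 0.264 and 7.85 TPM in every library. The 5 erythroid markers summed to 0.115 to 5.28 TPM in organoids and 1.37 to 276 TPM in native libraries. The part of these cells in the results was not tested.

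Replication RNA was highest in organoids at D0, and by D4 its sum was close to that of the native cells. The 44 genes together held 1381 and 1679 TPM in the 2 LCP D0 libraries, 857 and 1218 TPM at D2, 475 and 445 TPM at D4 and 421 and 376 TPM at D10. Both libraries of D4 and D10 thus lay below both of D0 and D2. Sorted organoid cells held 1686 and 2212 TPM at D0 and 402 and 379.7 TPM at D10, and the native sorts 488 to 576 TPM. Averaged over the genes on the log2(TPM + 1) scale, the level was 4.63 ± 0.14 at D0, 4.00 ± 0.31 at D2, 2.71 ± 0.19 at D4 and 2.47 ± 0.17 at D10 (mean ± SD, n = 2). Unsorted organoid libraries of the same replicate number share an extraction date, although the first D10 library has another sequencing date than the first D0 library. Within these numbers the mean difference from D0 was -0.75 and -0.50 at D2, -1.69 and -2.15 at D4 and -1.94 and -2.37 at D10. The direction was therefore the same within both dates at each time.

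**Figure D1:**
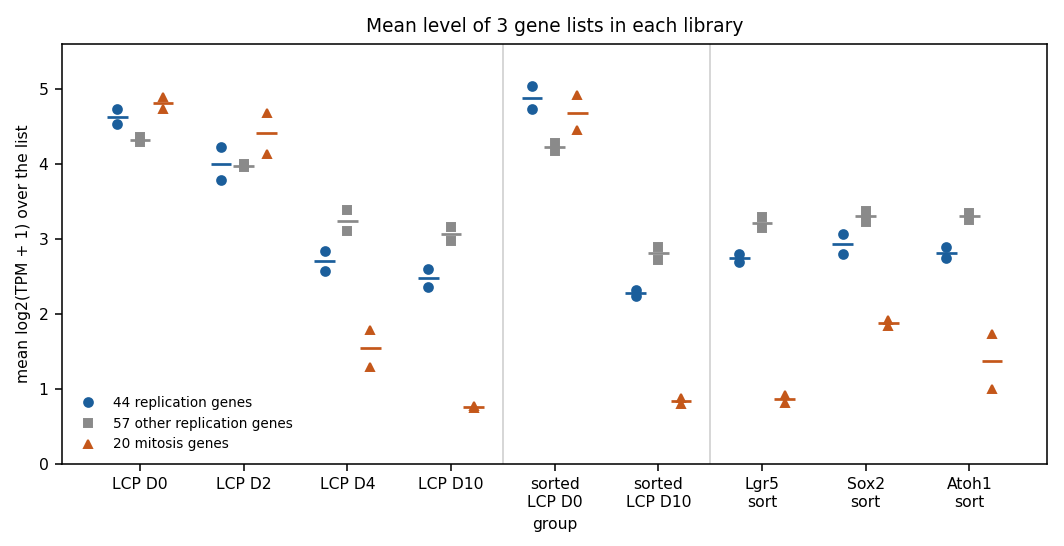
Mean log2(TPM + 1) over the 44 replication genes (circles), 57 other replication genes (squares) and 20 mitosis genes (triangles) in each library, with 2 libraries in each of the 9 groups and a bar at the group mean. The replication genes average 4.53 and 4.73 at LCP D0, 2.59 and 2.35 at LCP D10 and 2.68 to 3.06 in the 6 native libraries.

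All 44 genes passed the filter on low values (2 or more libraries at 1 TPM or above), and were tested with 20463 genes in all by limma, with Benjamini-Hochberg adjustment and a threshold of 0.05. At D2 none of the 44 passed, against 0.0342% of all genes tested being lower. The smallest adjusted p was 0.558 (limma), and 8 of 44 genes had an unadjusted p under 0.05, against 4.501% of all genes. All 44 differences were below 0, from -1.46 to -0.15, with a median of -0.58 against -0.02 over all genes tested. In 30 of the 44 both D2 libraries lay below both D0 libraries, against 18.5% of all genes tested. At the level of TPM the median gene stood at 65.1% of its D0 mean, and the range ran from 36.6 to 90.1%.

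By D4, 31 of the 44 genes had fallen, against 2.29% of all genes tested, and none had risen, against 1.09%. The median difference was -1.91 against -0.06 over all genes, and all 44 genes had both D4 libraries below both D0 libraries, against 25.9% of all genes. The count depends on single libraries: 11 genes passed without LCP D0 replicate 1, 7 without LCP D0 replicate 2, 19 without LCP D4 replicate 1 and 9 without LCP D4 replicate 2. Gmnn, Mcm5, Prim1, Rrm1, Rrm2 and E2f1 passed in each of those 4 fits. A fit of the 4 libraries of D0 and D4 alone, with no spread taken from other groups, called none of the 44 and no gene at all by limma, with 2804 genes at an unadjusted p under 0.05.

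By D10, 38 of the 44 genes had fallen, against 4.34% of all genes tested, and none had risen, against 3.05%. The median difference was -2.15 against -0.08 over all genes, and in 43 genes both D10 libraries lay below both D0 libraries, against 27.3% of all genes. In Pole both lay above, against 18.5% of all genes. The median gene stood at 18.02% of its D0 TPM, from 0.812% for Mcm10 to 200.3% for Pole. Cdc6, Gins4, Rfc1, Rfc2, Pole and Ccne1 did not pass. The count was 25 without LCP D0 replicate 1, 23 without LCP D0 replicate 2, 24 without LCP D10 replicate 2 and 34 without LCP D10 replicate 1, and 20 genes passed in each of these fits. The fit of D0 and D10 alone again called none of the 44 and no gene at all by limma, with 3274 genes at an unadjusted p under 0.05.

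**Figure D2:**
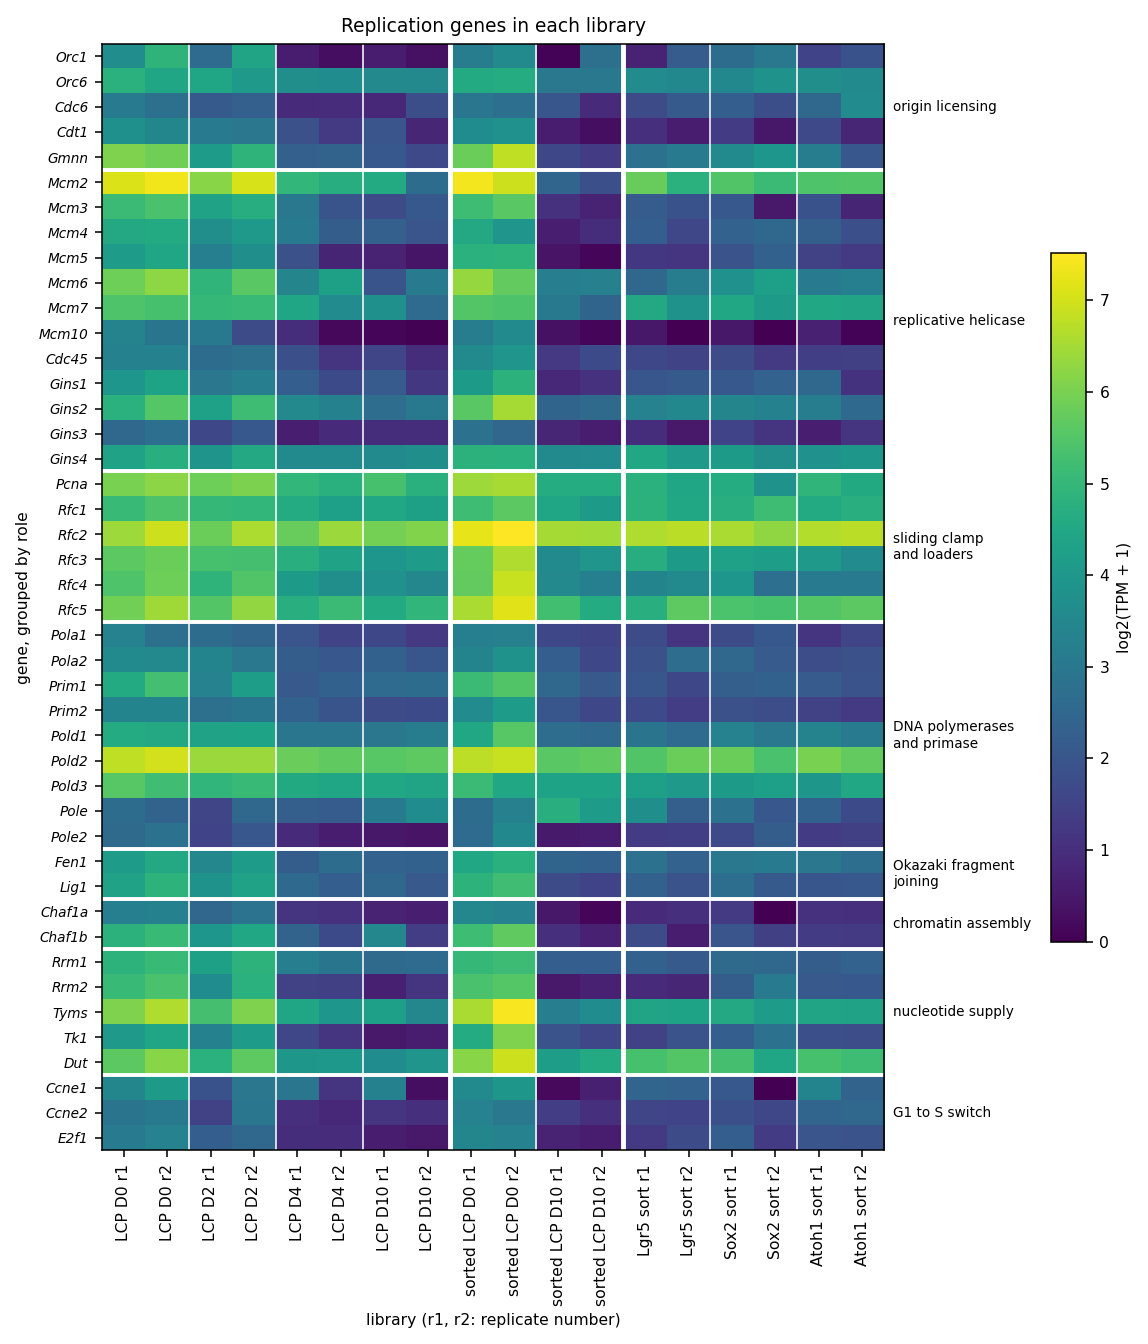
Heat map of log2(TPM + 1) for the 44 replication genes (rows, grouped by role) in the 18 libraries (columns, 2 per group). The D0 columns are the brightest of the organoids, at 4.53 to 5.04 on average over the genes, the D10 columns are dark at 2.24 to 2.59, and Pole is brighter at D10 than at D0.

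Of the 5 origin licensing genes none passed at D2, and 4 had fallen at D4 and 4 at D10. Counts by role, here and below, stand against 2.29% of all genes tested being lower at D4 and 4.34% at D10. In sorted cells at D10 the share of all genes was higher, at 10.7%. Gmnn encodes geminin, the inhibitor that keeps Cdt1 from licensing an origin again after it has fired. In unsorted organoids Gmnn was 66.1 and 58.4 TPM at D0, 16.8 and 28.7 at D2, 3.93 and 4.28 at D4 and 3.17 and 2.16 TPM at D10. Sorted organoid cells had 56.4 and 111 TPM at D0 and 2.12 and 1.54 TPM at D10, and native Gmnn was 7.97 and 3.09 TPM (Atoh1 sort), 6.08 and 7.83 TPM (Lgr5 sort) and 10.8 and 14.6 TPM (Sox2 sort). Every library from D2 on was below both D0 libraries, and D4 and D10 lay below D2. Gmnn fell at D10 by a log2 difference of -4.12 ± 0.43 (SE; limma adjusted p = 0.000239). Orc6, a subunit of the origin recognition complex, moved least in this group. It was 27.01 and 20.7 TPM at D0, 20.2 and 15.4 at D2, 12.2 and 11.6 at D4 and 10.6 and 10.5 TPM at D10. In sorted cells Orc6 was 23.4 and 24.2 TPM at D0 and 7.101 and 7.03 TPM at D10, and natively it was 12.1 and 11.1 TPM (Atoh1 sort), 11.4 and 10.4 TPM (Lgr5 sort) and 10.5 and 13.5 TPM (Sox2 sort). The D4 and D10 libraries lay below D0 without overlap, and the D10 difference was -1.09 ± 0.24 (SE; limma adjusted p = 0.0162). Orc1, the largest origin recognition subunit, was 11.99 and 28.4 TPM at D0, 5.19 and 19.9 at D2, 0.509 and 0.209 at D4 and 0.506 and 0.256 TPM at D10. Sorted cells had 7.96 and 11.1 TPM at D0 and 0.0572 and 5.804 TPM at D10, and native cells 1.85 and 2.74 TPM (Atoh1 sort), 0.664 and 3.56 TPM (Lgr5 sort) and 5.37 and 7.01 TPM (Sox2 sort). One sorted D10 library was thus inside the native range and the other near 0. Unsorted Orc1 fell by D10 (-3.83 ± 0.82 SE, limma adjusted p = 0.0152), while the sorted difference of -1.96 ± 0.82 (SE; limma adjusted p = 0.105) did not pass, and with replicate number as a block it did. Cdc6, which helps to load the helicase ring, was 7.53 and 5.86 TPM at D0, 3.38 and 3.97 at D2, 0.846 and 0.934 at D4 and 0.779 and 2.47 TPM at D10. In sorted cells it was 6.68 and 5.69 TPM at D0 and 3.03 and 0.86 TPM at D10, and in native cells 4.75 and 11.3 TPM (Atoh1 sort), 2.37 and 3.36 TPM (Lgr5 sort) and 3.71 and 2.48 TPM (Sox2 sort). The replicates at D10 differed in both organoid series and the second Atoh1 library was the highest of all. Cdc6 was lower at D4 (-2.02 ± 0.47 SE, limma adjusted p = 0.0382) and did not pass at D10, unsorted (-1.62 ± 0.47 SE, limma adjusted p = 0.0599) or sorted (-1.39 ± 0.47 SE, limma adjusted p = 0.0507). Cdt1, the partner of Cdc6, fell from 12.7 and 9.88 TPM at D0 to 2.92 and 0.739 TPM at D10.

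All 12 genes of the helicase were lower in sorted cells at D10, against 10.7% of all genes tested. In unsorted organoids 10 of 12 were lower at D4, against 2.29%, and 11 of 12 at D10, against 4.34%. Mcm5, 1 of the 6 ring subunits, showed the largest difference among them in unsorted organoids. It was 16.8 and 20.2 TPM at D0, 8.56 and 12.5 at D2, 2.61 and 0.719 at D4 and 0.688 and 0.353 TPM at D10. Sorted cells had 27.2 and 28.1 TPM at D0 and 0.315 and 0.0837 TPM at D10, and native cells 1.71 and 1.41 TPM (Atoh1 sort), 1.31 and 1.25 TPM (Lgr5 sort) and 2.81 and 4.0 TPM (Sox2 sort). The D10 libraries were below every native library, and D4, D10 and native libraries were all below D0 and D2. The D10 difference was -3.68 ± 0.37 (SE; limma adjusted p = 0.000186) unsorted and -4.58 ± 0.37 (SE; limma adjusted p = 4.23e-05) sorted. Mcm2, another ring subunit (chr6:88883474-88898780 on mm10, minus strand, protein coding), was the most abundant helicase gene at D0. It was 139 and 163 TPM at D0, 71.03 and 134 at D2, 30.4 and 24.9 at D4 and 23.3 and 5.295 TPM at D10. In sorted cells Mcm2 was 167 and 123 TPM at D0 and 4.46 and 2.59 TPM at D10, and in native cells 42.8 and 44.03 TPM (Atoh1 sort), 53.9 and 27.1 TPM (Lgr5 sort) and 43.97 and 34.02 TPM (Sox2 sort). Native cells thus kept Mcm2 above every D10 library, and of the unsorted D10 replicates the first was well above the second. Mcm2 fell by D10, with -3.61 ± 0.54 (SE; limma adjusted p = 0.00247) unsorted and -5.03 ± 0.54 (SE; limma adjusted p = 0.000147) sorted. The other ring subunits Mcm3, Mcm4, Mcm6 and Mcm7 had D10 differences from -3.54 to -2.18 in unsorted organoids, all past the threshold. Mcm3 fell from 33.8 and 39.9 TPM at D0 to 2.36 and 3.16 TPM at D10, Mcm4 from 22.01 and 23.2 TPM at D0 to 3.903 and 2.99 TPM at D10, Mcm6 from 56.5 and 75.5 TPM at D0 to 2.88 and 7.34 TPM at D10 and Mcm7 from 42.5 and 39.4 TPM at D0 to 12.8 and 5.24 TPM at D10. Mcm6 and Mcm2 were still lower at D10 than at D4 (-1.34 and -1.20), but not past the threshold, with limma adjusted p of 0.842 and 1. Mcm10, which helps the ring to open, fell from 9.37 and 6.63 TPM at D0 to 0.0965 and 0.0333 TPM at D10. Cdc45 and the GINS subunits complete the active helicase. Cdc45 fell from 8.96 and 8.87 TPM at D0 to 1.98 and 0.977 TPM at D10. Gins1 fell from 14.6 and 19.5 TPM at D0 to 3.46 and 1.33 TPM at D10. Gins2 fell from 27.1 and 45.2 TPM at D0 to 5.49 and 7.15 TPM at D10, and Gins3 from 4.71 and 5.74 TPM at D0 to 0.9604 and 0.977 TPM at D10. No library of D10 reached the D0 range for any of these 4 genes. Gins4, the remaining GINS subunit, differed least. It was 18.97 and 25.9 TPM at D0, 13.8 and 22.1 at D2, 10.99 and 10.98 at D4 and 10.8 and 12.5 TPM at D10. Sorted cells had 27.6 and 27.1 TPM at D0 and 10.9 and 11.3 TPM at D10, and native cells 13 and 14.7 TPM (Atoh1 sort), 21.9 and 15.3 TPM (Lgr5 sort) and 16.2 and 12.04 TPM (Sox2 sort). All D4 and D10 libraries were below all D0 libraries, but 1 Lgr5 library lay inside the D0 range. The unsorted D10 difference of -0.88 ± 0.28 (SE; limma adjusted p = 0.0895) did not pass, and the sorted one of -1.23 ± 0.28 (SE; limma adjusted p = 0.00867) did.

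The sliding clamp and its loaders had smaller differences, with a median of -1.24 at D10 over the 6 genes. At D4 1 of 6 had fallen, at D10 4 of 6, and in sorted cells at D10 all 6. Pcna, the clamp itself, was 63.4 and 72.8 TPM at D0, 57.7 and 65.01 at D2, 30.8 and 26.2 at D4 and 39 and 26.2 TPM at D10. In sorted cells Pcna was 84.3 and 92.2 TPM at D0 and 24.4 and 23.97 TPM at D10, and in native cells 29.2 and 22.9 TPM (Atoh1 sort), 26.8 and 20.5 TPM (Lgr5 sort) and 24.2 and 13.5 TPM (Sox2 sort). D2 overlapped D0, while D4 and D10 did not, and the D10 difference was -1.06 ± 0.29 (SE; limma adjusted p = 0.046). That call was not kept in every alternative setting with all 18 libraries. A processed copy of the gene, Pcna-ps2, was listed at 0 to 30.1 TPM, and reads may be split between them. The loader is a ring of Rfc1 to Rfc5. Rfc4 differed most among the loaders, at 42.4 and 57.6 TPM at D0, 28.7 and 43.9 at D2, 16 and 12.05 at D4 and 12.9 and 10.2 TPM at D10. Sorted cells had 51.04 and 117 TPM at D0 and 10.7 and 8.55 TPM at D10, and native cells 7.7 and 7.62 TPM (Atoh1 sort), 9.51 and 11 TPM (Lgr5 sort) and 14.3 and 5.68 TPM (Sox2 sort). D10 lay within the range of the native libraries, and the unsorted difference from D0 was -2.01 ± 0.44 (SE; limma adjusted p = 0.0167). Rfc2 was the most abundant loader subunit and differed least, at 84.3 and 122 TPM at D0, 55.99 and 95.6 at D2, 53.99 and 83.03 at D4 and 60.95 and 67.6 TPM at D10. In sorted cells Rfc2 was 149 and 183 TPM at D0 and 90.2 and 88.5 TPM at D10, and in native cells 99.9 and 107 TPM (Atoh1 sort), 97.3 and 106 TPM (Lgr5 sort) and 94.4 and 76.5 TPM (Sox2 sort). The native libraries overlapped the unsorted D0 libraries. Rfc2 did not pass in unsorted organoids (-0.65 ± 0.29 SE, limma adjusted p = 0.225) and passed narrowly in sorted cells (-0.88 ± 0.29 SE, limma adjusted p = 0.0457), a call lost without any 1 of the 4 sorted libraries. Rfc1, the large subunit, was 32.6 and 41.6 TPM at D0, 31.1 and 30.6 at D2, 23.6 and 18.1 at D4 and 21.8 and 18.4 TPM at D10. Sorted cells had 35.6 and 48.4 TPM at D0 and 20.7 and 15.98 TPM at D10, and native cells 23.1 and 25.03 TPM (Atoh1 sort), 27.4 and 21.7 TPM (Lgr5 sort) and 26.02 and 35.4 TPM (Sox2 sort). Here too a Sox2 library lay inside the D0 range, and the D10 difference of -0.85 ± 0.26 (SE; limma adjusted p = 0.0778) did not pass. Rfc3 fell from 48.9 and 55.97 TPM at D0 to 14.5 and 16.5 TPM at D10, and Rfc5 from 59.8 and 85.7 TPM at D0 to 23.4 and 29.7 TPM at D10.

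Polymerase and primase genes gave 5 of 9 lower at D4, 8 of 9 at D10 and 7 of 9 in sorted cells at D10, and they hold the 1 gene with a difference above 0 at D10. Pole (chr5:110286306-110337474 on mm10, plus strand, protein coding) encodes the catalytic subunit of polymerase epsilon, which copies the leading strand. It was 5.33 and 4.28 TPM at D0, 1.98 and 4.67 at D2, 3.83 and 3.59 at D4 and 7.64 and 11.6 TPM at D10. In sorted cells Pole was 5.37 and 8.63 TPM at D0 and 25.3 and 16.7 TPM at D10, and in native cells 4.03 and 2.24 TPM (Atoh1 sort), 12.3 and 3.87 TPM (Lgr5 sort) and 6.02 and 3.13 TPM (Sox2 sort). Both D10 libraries lay above both D0 libraries in each series, and the sorted D10 libraries were the highest of all 18. The difference of 0.85 ± 0.51 (SE; limma adjusted p = 0.398) unsorted and 1.46 ± 0.51 (SE; limma adjusted p = 0.0584) sorted did not pass. With TPM rescaled by the median of gene ratios the sorted difference did. Pole2, another subunit of the same enzyme, was 5.07 and 6.08 TPM at D0, 1.85 and 3.103 at D2, 0.8598 and 0.515 at D4 and 0.39 and 0.318 TPM at D10. Its sorted values were 5.13 and 10.5 TPM at D0 and 0.447 and 0.476 TPM at D10, and the native ones 1.54 and 1.68 TPM (Atoh1 sort), 1.52 and 1.65 TPM (Lgr5 sort) and 2.17 and 3.63 TPM (Sox2 sort). All D4 and D10 libraries were below 1 TPM and below all native libraries, and the D10 difference was -2.28 ± 0.34 (SE; limma adjusted p = 0.00253). Prim1, the catalytic subunit of primase, which lays down the RNA primers, showed the largest fall of this group. It was 23.4 and 37.3 TPM at D0, 8.996 and 17.5 at D2, 3.32 and 4.02 at D4 and 5.16 and 5.36 TPM at D10. Sorted cells had 33.6 and 44.04 TPM at D0 and 4.66 and 3.31 TPM at D10, and native cells 3.49 and 2.78 TPM (Atoh1 sort), 3.07 and 2.097 TPM (Lgr5 sort) and 3.799 and 4.03 TPM (Sox2 sort). D2 was below D0 and D4 below D2 without overlap, and D10 was above D4. The D10 difference was -2.29 ± 0.35 (SE; limma adjusted p = 0.00285). Its partners Prim2, Pola1 and Pola2 form the primase and polymerase alpha complex with it and had D10 differences of -1.69, -1.61 and -1.37. Polymerase delta copies the lagging strand. Its catalytic subunit Pold1 fell from 23.7 and 22.5 TPM at D0 to 6.88 and 8.02 TPM at D10, and Pold2 from 109.9 and 126 TPM at D0 to 46.1 and 49.4 TPM at D10. Pold3, an accessory subunit, was 46.3 and 36.5 TPM at D0, 30.1 and 32.3 at D2, 22.6 and 20.8 at D4 and 21.3 and 20.04 TPM at D10. In sorted cells it was 34.3 and 21.3 TPM at D0 and 19.5 and 19.4 TPM at D10, and natively 14.9 and 21.6 TPM (Atoh1 sort), 17.98 and 15.8 TPM (Lgr5 sort) and 16.04 and 17.9 TPM (Sox2 sort). The sorted D0 libraries were lower than the unsorted ones, and the second lay close to D10. Pold3 passed in unsorted organoids (-0.96 ± 0.26 SE, limma adjusted p = 0.0482) and not in sorted cells (-0.46 ± 0.26 SE, limma adjusted p = 0.238). The unsorted call was not kept in every alternative setting with all 18 libraries.

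Fen1 trims the flaps of Okazaki fragments on the lagging strand and Lig1 seals them, and both were lower at D4, at D10 and in sorted cells. Lig1 was 19.3 and 27.9 TPM at D0, 13.2 and 19.1 at D2, 4.96 and 3.77 at D4 and 4.87 and 3.26 TPM at D10. Sorted cells had 28.1 and 36.2 TPM at D0 and 2.29 and 1.85 TPM at D10, and native cells 2.999 and 3.198 TPM (Atoh1 sort), 4.03 and 2.76 TPM (Lgr5 sort) and 5.56 and 3.34 TPM (Sox2 sort). Fen1 was 16.3 and 22.2 TPM at D0, 10.2 and 16.7 at D2, 3.64 and 5.34 at D4 and 4.14 and 4.002 TPM at D10. For sorted cells Fen1 was 21.2 and 26.6 TPM at D0 and 4.37 and 4.05 TPM at D10, and for native cells 6.94 and 5.59 TPM (Atoh1 sort), 6.005 and 4.16 TPM (Lgr5 sort) and 7.06 and 7.74 TPM (Sox2 sort). Neither gene overlapped between D0 and D4, D10 or native libraries, and the D10 differences were -2.28 ± 0.34 (SE; limma adjusted p = 0.00229) for Lig1 and -1.98 ± 0.31 (SE; limma adjusted p = 0.00315) for Fen1. Chaf1a and Chaf1b are subunits of the chaperone that places histones on new DNA. Chaf1a was 8.48 and 8.902 TPM at D0, 4.596 and 6.24 at D2, 1.21 and 1.12 at D4 and 0.637 and 0.559 TPM at D10. In sorted cells it was 10.1 and 9.18 TPM at D0 and 0.405 and 0.0937 TPM at D10, and in native cells 1.09 and 1.05 TPM (Atoh1 sort), 0.887 and 1.02 TPM (Lgr5 sort) and 1.41 and 0.0138 TPM (Sox2 sort). Chaf1a thus ended below 1 TPM in all D10 libraries. Chaf1b was 27.7 and 32.98 TPM at D0, 14.6 and 21.2 at D2, 4.21 and 2.26 at D4 and 10.2 and 1.57 TPM at D10. Sorted cells had 35.2 and 50.6 TPM at D0 and 1.06 and 0.624 TPM at D10, and native cells 1.47 and 1.41 TPM (Atoh1 sort), 2.298 and 0.502 TPM (Lgr5 sort) and 2.97 and 1.71 TPM (Sox2 sort). The first unsorted D10 library was well above the second, while both sorted D10 libraries lay inside the native range. The D10 differences were -2.60 ± 0.36 (SE; limma adjusted p = 0.00156) for Chaf1a and -2.54 ± 0.60 (SE; limma adjusted p = 0.0253) for Chaf1b. With a pseudocount of 0.1 Chaf1b did not pass.

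Nucleotide supply genes had fallen in 5 of 5 cases at D4, at D10 and in sorted cells. Rrm2 (chr12:24708241-24714146 on mm10, plus strand, protein coding) encodes the regulated subunit of ribonucleotide reductase, which makes the deoxynucleotides, and had the largest difference of all 44 genes in unsorted organoids. It was 33.04 and 40.5 TPM at D0, 11.6 and 26.8 at D2, 1.72 and 1.69 at D4 and 0.589 and 1.196 TPM at D10. Sorted cells had 40.2 and 45.9 TPM at D0 and 0.435 and 0.613 TPM at D10, and native cells 3.33 and 3.18 TPM (Atoh1 sort), 0.915 and 0.738 TPM (Lgr5 sort) and 3.66 and 7.48 TPM (Sox2 sort). The Sox2 sort was above the Lgr5 sort, and all native and D4 to D10 libraries were below both D2 libraries. Rrm2 fell by D10 with -4.33 ± 0.40 (SE; limma adjusted p = 0.000165) unsorted and -4.85 ± 0.40 (SE; limma adjusted p = 4.23e-05) sorted. Rrm1, the other subunit, fell from 28.1 and 33.2 TPM at D0 to 5.09 and 5.198 TPM at D10, a log2 difference of -2.36. Dut removes dUTP from the pool and differed least in this role. It was 48.8 and 71.8 TPM at D0, 26.8 and 49.1 at D2, 14.8 and 15.1 at D4 and 11.6 and 14.2 TPM at D10. In sorted cells Dut was 71.1 and 122 TPM at D0 and 17.04 and 23.1 TPM at D10, and in native cells 39.2 and 35.02 TPM (Atoh1 sort), 39.6 and 44.1 TPM (Lgr5 sort) and 38.3 and 20.5 TPM (Sox2 sort). Native libraries were above all unsorted D4 and D10 libraries and below D0. The D10 difference was -2.13 ± 0.38 (SE; limma adjusted p = 0.0058). Thymidylate synthase Tyms fell from 65.5 and 97.9 TPM at D0 to 17.8 and 10.2 TPM at D10, and thymidine kinase Tk1 from 15.5 and 20.2 TPM at D0 to 0.421 and 0.527 TPM at D10.

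Among the genes that switch cells from G1 to S phase, 2 of 3 fell at D4 and D10 and all 3 in sorted cells. E2f1, the transcription factor, was 7.37 and 9.001 TPM at D0, 3.72 and 4.78 at D2, 0.986 and 0.952 at D4 and 0.532 and 0.436 TPM at D10. Sorted cells had 9.87 and 9.02 TPM at D0 and 0.657 and 0.524 TPM at D10, and native cells 2.98 and 2.76 TPM (Atoh1 sort), 1.43 and 2.33 TPM (Lgr5 sort) and 3.72 and 1.498 TPM (Sox2 sort). D4 and D10 were below 1 TPM and below every native library, and the D10 difference was -2.63 ± 0.33 (SE; limma adjusted p = 0.000794). Ccne2, cyclin E2, which activates the kinase Cdk2, was 6.501 and 7.31 TPM at D0, 1.81 and 6.803 at D2, 1.04 and 0.81 at D4 and 1.25 and 1.001 TPM at D10. In sorted cells it was 9.02 and 7.09 TPM at D0 and 1.59 and 1.08 TPM at D10, and in native cells 4.5 and 4.81 TPM (Atoh1 sort), 1.97 and 1.88 TPM (Lgr5 sort) and 2.58 and 2.03 TPM (Sox2 sort). The Atoh1 sort was above the other native sorts without overlap, but its difference from their mean did not pass the threshold. The D10 difference was -1.90 ± 0.40 (SE; limma adjusted p = 0.0149). Ccne1, cyclin E1, was 10.03 and 15.99 TPM at D0, 2.75 and 6.93 at D2, 6.81 and 1.22 at D4 and 8.82 and 0.219 TPM at D10. Sorted cells had 10.9 and 14.8 TPM at D0 and 0.149 and 0.588 TPM at D10, and native cells 9.53 and 4.22 TPM (Atoh1 sort), 4.46 and 4.18 TPM (Lgr5 sort) and 3.24 and 0 TPM (Sox2 sort). The unsorted D4 and D10 replicates differed widely, the first closer to D0 than the second, and it was the 1 gene listed at 0 in a library. Ccne1 did not pass in unsorted organoids (-1.98 ± 0.94 SE, limma adjusted p = 0.264). In sorted cells it did (-3.34 ± 0.94 SE, limma adjusted p = 0.0233), a call lost without any 1 of the 4 sorted libraries.

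**Figure D3:**
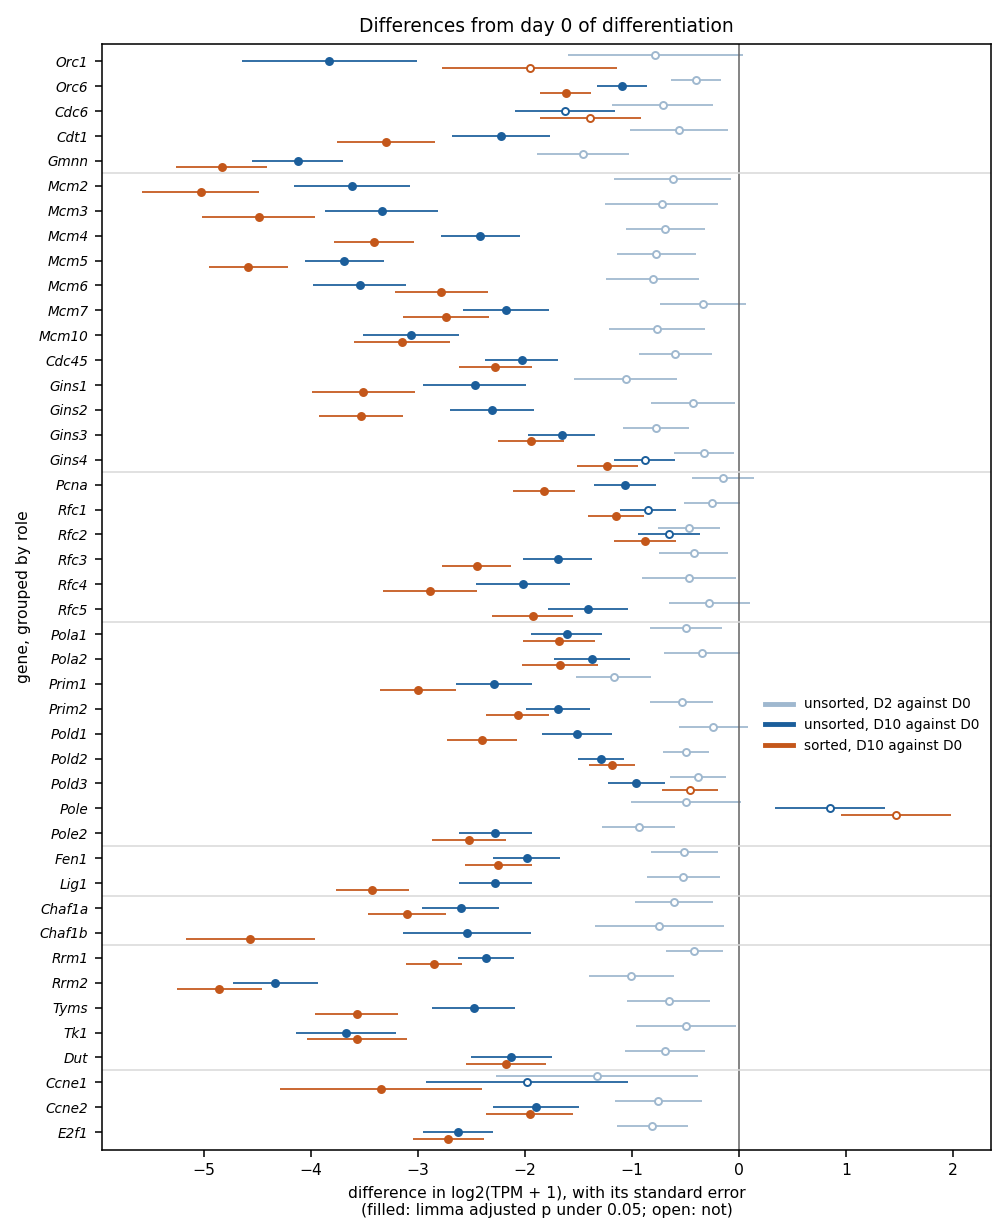
Difference in log2(TPM + 1) from D0 for each of the 44 genes, as points with standard errors, for unsorted organoids at D2 (none of 44 past the threshold) and D10 (38 of 44) and for sorted cells at D10 (40 of 44). Filled points passed the limma threshold of 0.05 after adjustment, open ones did not, and Pole is the 1 gene on the right at D10.

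On the log2 scale the largest step of the mean over the 44 genes lay between D2 and D4. Within replicate numbers 1 and 2 that step was -0.94 and -1.65, against -0.75 and -0.50 from D0 to D2. In summed TPM the replicates differed. Replicate 1 fell more from D0 to D2 (1381 to 857 TPM) than from D2 to D4 (857 to 475 TPM). Replicate 2 fell more from D2 to D4 (1218 to 445 TPM) than from D0 to D2 (1679 to 1218 TPM). For the 39 genes with a D10 difference below -1, the median share of the final log2 fall reached was 25.3% at D2, from 13.5 to 66.9%, and 87.3% at D4, from 62.1 to 124%. Between D2 and D4 themselves 3 genes passed, against 0.445% of all genes: Rrm2 (-2.79 ± 0.40 SE, limma adjusted p = 0.0082), Mcm5 (-2.19 ± 0.37 SE, limma adjusted p = 0.0203) and Rrm1 (-1.48 ± 0.26 SE, limma adjusted p = 0.0282). In 41 of 44 genes both D4 libraries lay below both D2 libraries, against 17.4% of all genes. None passed without LCP D2 replicate 2, without LCP D4 replicate 2 or in a fit of D2 and D4 alone. Between D4 and D10 none of the 44 passed by limma, against 0.0147% of all genes in either direction, and 3 of 44 had an unadjusted p under 0.05, against 4.58% of all genes. The median difference over that interval was -0.23.

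Sorted organoid cells showed the same direction with larger differences on average. From D0 to D10, 40 of 44 genes fell, against 10.7% of all genes tested, and none rose, against 13.3%. In 43 genes both D10 libraries lay below both D0 libraries, against 28.8% of all genes, and in Pole both lay above, against 31.6%. Orc1, Cdc6, Pold3 and Pole did not pass. The mean over the genes changed by -2.42 and -2.80 within replicate numbers, where the libraries share an extraction date in each number, and the median difference was -2.62 against 0.02 over all genes. Leaving out 1 library gave 37 to 38 genes, and 35 genes passed in every such fit. A fit of the 4 sorted libraries alone gave 25. The change in sorted cells minus the change in unsorted organoids was below 0 for 37 genes and above 0 for 7, with a median of -0.49 against 0.18 over all genes. None of the 44 passed by limma, against 0.205% of all genes. The smallest adjusted p was 0.406 (limma) and 3 of 44 genes, Lig1, Chaf1b and Gins2, had an unadjusted p under 0.05, against 11.1% of all genes. Without LCP D10 replicate 2, Chaf1b passed.

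Between sorted and unsorted organoids of the same day none of the 44 passed. At D0 the sorted minus unsorted difference had a median of 0.26, the smallest adjusted p was 0.498 (limma), and 0.0782% of all genes passed. At an unadjusted p under 0.05 there were 4 of 44 genes, Rfc2, Tk1, Gins2 and Pold3, against 9.52% of all genes. At D10 6.22% of all genes were called and again none of the 44, with 5 of 44 at an unadjusted p under 0.05, against 23.7% of all genes. Mcm4 was the nearest, at 0.564 and 0.9898 TPM sorted and 3.903 and 2.99 TPM unsorted. Its difference was -1.33 ± 0.37 (SE; limma adjusted p = 0.0564), and with rescaled TPM it passed. Mcm2 and Chaf1b passed without LCP D10 replicate 2, and Mcm4 and Tk1 with a pseudocount of 0.1. Rescaling moved the median of all genes by 0.13 at D0 and 0.11 at D10 in these comparisons, and by 0.20 between the sorted D10 cells and the Atoh1 sort.

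Among the native sorts the mean over the 44 genes was 2.81 ± 0.11 for Atoh1, 2.74 ± 0.08 for Lgr5 and 2.93 ± 0.18 for Sox2 (mean ± SD of log2(TPM + 1), n = 2). None of the 44 passed between the Atoh1 sort and the mean of the other sorts, against 0.821% of all genes called by limma. Cdc6 (1.09 ± 0.41 SE, limma adjusted p = 0.297) and Ccne2 (0.86 ± 0.35 SE, limma adjusted p = 0.345) had an unadjusted p under 0.05, as did 11.96% of all genes. Between the Lgr5 and Sox2 sorts none passed either, against 0.557% of all genes, and 3 of 44 genes had an unadjusted p under 0.05, against 6.55% of all genes. Rrm2 came nearest, at 0.915 and 0.738 TPM in the Lgr5 sort and 3.66 and 7.48 TPM in the Sox2 sort (-1.78 ± 0.40 SE, limma adjusted p = 0.0961), and it passed without Sox2 replicate 1. Mcm6 and Mcm5 were also lower in the Lgr5 sort, by -1.19 and -0.94, without passing.

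Against organoids at D0, native cells held a median of 25.6% of the TPM. The share ran from 3.16% for Mcm10 to 110% for Pole. In 18 genes it was under 20%, and 7 genes were above 50%: Rfc5, Dut, Gins4, Cdc6, Rfc1, Rfc2 and Pole. For 39 of 44 genes all 6 native libraries lay below both LCP D0 libraries, against 20.6% of all genes tested. Sorted organoid cells at D0 were compared directly with the Lgr5 sort, and 34 of 44 genes were higher in the organoid cells, against 3.85% of all genes tested. None was lower, against 7.11%. In 43 genes both organoid libraries lay above both Lgr5 libraries, against 18.3% of all genes. The median difference was 1.98 against -0.09 over all genes. Rrm2 (4.59 ± 0.40 SE, limma adjusted p = 4.1e-05), Chaf1b (4.28 ± 0.60 SE, limma adjusted p = 0.000869) and Mcm5 (3.65 ± 0.37 SE, limma adjusted p = 0.000111) were the most different. Orc1, Cdc6, Mcm7, Gins4, Rfc1, Rfc2, Pold3, Pole, Dut and Ccne1 did not pass. Leaving out 1 library gave 27 to 33 genes, and the 4 libraries alone gave none of them and no gene at all by limma, with 3764 genes at an unadjusted p under 0.05. Culture and the sort differ together in this comparison and cannot be told apart.

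**Figure D4:**
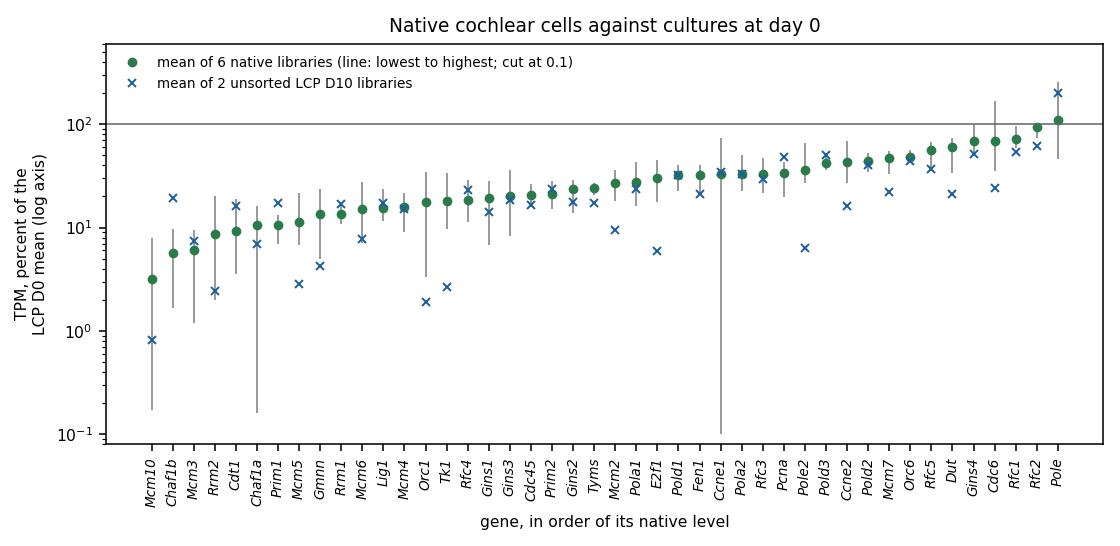
TPM of each of the 44 genes as a percent of its LCP D0 mean (log axis), in native cells (green point, mean of 6 libraries; grey line, lowest to highest) and in unsorted organoids at D10 (blue cross, mean of 2 libraries). Native means run from 3.16% for Mcm10 to 110% for Pole, and the Ccne1 line is cut at 0.1% because 1 library is at 0.

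Most replication genes had lower values in sorted organoid cells at D10 than in the native Atoh1 sort, and few of these differences passed. The difference was below 0 for 35 of the 44 genes. Its size depended on scaling. With rescaled TPM the mean over the 44 genes went from -0.54 to -0.31, and the median of all genes tested from -0.11 to 0.09. In 26 genes both organoid libraries lay below both Atoh1 libraries, against 36% of all genes tested, and in 3 both lay above, against 24.9%. At an unadjusted p under 0.05 there were 15 genes, against 26.5% of all genes. After adjustment by limma, 5 of the 44 were lower in the organoid cells, against 7.34% of all genes tested, and 1 was higher, against 4.51%. The share of members called in either direction was thus near that of all genes. Mcm2 stood at 4.46 and 2.59 TPM in the organoid cells and 42.8 and 44.03 TPM in the Atoh1 sort (-3.33 ± 0.54 SE, limma adjusted p = 0.00259). Mcm7 (-1.70 ± 0.40 SE, limma adjusted p = 0.0184), E2f1 (-1.28 ± 0.33 SE, limma adjusted p = 0.0269), Rrm2 (-1.48 ± 0.40 SE, limma adjusted p = 0.0316) and Cdc6 (-1.62 ± 0.47 SE, limma adjusted p = 0.0447) were the other lower genes. Mcm7, a ring subunit, was 7.196 and 4.42 TPM in the organoid cells and 21.3 and 19.9 TPM in the Atoh1 sort. Pole was the higher one, at 25.3 and 16.7 TPM against 4.03 and 2.24 TPM (2.42 ± 0.51 SE, limma adjusted p = 0.011). Without 1 library the 6 calls became 3 (Atoh1 replicate 1 or sorted LCP D10 replicate 1), 1 (Atoh1 replicate 2) or 2 (sorted LCP D10 replicate 2), and the 4 libraries alone gave 1. The call of Mcm2 was kept in each fit that left out 1 library. The median difference was -0.42 against -0.11 over all genes. Mesenchyme markers were 149.9 and 126 TPM in the Atoh1 sort against 2.50 and 2.00 TPM in the organoid cells. Erythroid markers were 191 and 276 TPM against 0.712 and 0.352 TPM, and endothelial markers 97.8 and 131 TPM against 4.37 and 5.98 TPM. Supporting cell markers went the other way, at 1748 and 1168 TPM in the Atoh1 sort against 6448 and 7519 TPM. The part of these cells was not tested.

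Of 57 other replication genes (origin firing factors, fork protection, further polymerase and loader subunits, histone supply, nucleotide metabolism and E2F and Rb family genes), none passed at D2, 16 fell at D4, 21 at D10 and 36 in sorted cells at D10, and none rose. The shares of all genes tested that rose were 1.09% at D4, 3.05% at D10 and 13.3% in sorted cells at D10. Those that fell were 0.0342% at D2, 2.29% at D4, 4.34% at D10 and 10.7% in sorted cells at D10. The largest falls at D10 were of Ccna2, cyclin A2 of S phase and mitosis, Uhrf1, which carries DNA methylation to the new strand, Asf1b, a histone chaperone, and Timeless, of the fork protection complex. Ccna2 went from 34.1 and 44.2 TPM at D0 to 0.746 and 0.352 TPM at D10 (-4.70 ± 0.36 SE), Uhrf1 from 48.7 and 56.6 to 2.07 and 1.17 TPM (-4.37 ± 0.39 SE), Asf1b from 33.1 and 39.5 to 3.00 and 2.29 TPM (-3.36 ± 0.47 SE) and Timeless from 24.4 and 17.2 to 3.43 and 1.63 TPM (-2.66 ± 0.37 SE). Of 20 mitosis genes, none passed at D2, 19 fell at D4 and 20 at D10 and in sorted cells at D10, against the same shares of all genes. Their median difference was -0.42 at D2, where the 44 replication genes had -0.58, and -3.93 at D10, where the replication genes had -2.15. The mitosis genes had reached a median of 9.97% of their final log2 fall at D2, against 25.3% for replication genes with a D10 difference below -1, and this difference between the lists was not tested. From D2 to D4, 18 of the 20 mitosis genes fell, against 0.445% of all genes tested. Mki67, the proliferation marker, was 5.15 and 4.75 TPM at D0, 3.17 and 4.65 TPM at D2 and 0.0586 and 0.0318 TPM at D10.

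Some genes share exon bases with a neighbour on the opposite strand, and the kits described do not mark strand, so reads there cannot be assigned. The overlap covers 78.8% of exon bases in Fen1 (with Gm10143, at most 0.756 TPM), 67.3% in Gins2 (with Gse1, at most 20.2 TPM) and 52.5% in Chaf1a (with Ubxn6, at most 76.3 TPM). Smaller overlaps, up to 17.4%, touch Ccne2, Cdc45, Lig1, Mcm7, Orc1, Orc6, Pole, Rfc2, Rfc4, Rfc5 and Tk1, and Pole2 shares bases with Gm49384 on the same strand. Fen1 also shares 5.37% of its exon bases with Tmem258, which reached 294.5 TPM. Other abundant neighbours were Eif4a2 (12.65% of Rfc4, up to 237.5 TPM) and Cops6 (1.446% of Mcm7, up to 210.5 TPM). Ufd1 (5.961% of Cdc45) reached 195.4 TPM and Wsb2 (10.69% of Rfc5) 159.5 TPM. For Pole the shared part is 0.699%.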

How the data were processed

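RNA was measured in 18 bulk libraries, and the deposited files hold TPM per gene for each. The protocols in the labels describe a SMARTer amplification with ThruPLEX libraries, which do not mark strand. STAR, Salmon, FastQC, DESeq2 and mm10 are named in the submitters' processing notes, without roles or versions. TPM keeps no depth, so read numbers behind a value are unknown and no counting interval is given. Identifiers without a gene name numbered 505 of 47729 and held 0.781 to 3.76% of the TPM.

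Values were taken as log2(TPM + 1), so differences of low genes are understated. The 20463 genes that reached 1 TPM in 2 or more libraries were fitted with limma 3.58.1 in R 4.3.3, with a mean per group, all 18 libraries and a moderated spread with trend (9 residual and 2.8 prior degrees of freedom). The 13 comparisons were each adjusted over all genes tested (Benjamini-Hochberg, two-sided, threshold 0.05). Genes were placed on GENCODE M21 (GRCm38) and start regions taken from RefSeq (GRCm38.p6).

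The 44 genes and the other lists were chosen with earlier results of these data known. Values in every library are given, by role, for the genes with the largest and smallest difference at D10, for those not past the threshold at D10, and for a few others. Alternatives changed the pseudocount, filter, scaling, replicate block, libraries in the fit and each library in turn. A replicate number marks a shared extraction date in the labels within the unsorted organoids and within the sorted ones. Number 1 has different extraction dates in these series, so it does not pair sorted with unsorted libraries. Number 2 has the same extraction and sequencing dates in both series. Deviations of same-numbered libraries from their group means correlated at 0.2106 to 0.4833 among unsorted organoid groups and at 0.143 between sorted D0 and D10. Among native sorts the correlation was 0.0993 to 0.1409. Between sorted and unsorted libraries it was 0.0915 at D0 and -0.0187 at D10. For 7 libraries the labelled extraction date is later than the sequencing date, so these dates are uncertain.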

Additional observations from a re-analysis of the deposited data

How the results depend on the processing

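Counts are of the 44 genes past the limma threshold. Fits of the compared groups alone gave 0 at D4, 0 at D10, 0 for D4 against D2, 25 for sorted D10 against D0, 0 for sorted D0 against the Lgr5 sort and 1 for sorted D10 against the Atoh1 sort. Leaving out 1 library gave 7 to 19 at D4, 23 to 34 at D10, 0 to 3 for D4 against D2, 0 to 1 for the difference between the sorted and unsorted changes, 0 to 2 for sorted against unsorted D10, 0 to 1 for the Lgr5 against the Sox2 sort and 1 to 3 for sorted D10 against the Atoh1 sort. The lone library left in a group was assumed to vary like the others. Sorted against unsorted D10 gave 2 with a pseudocount of 0.1 and 1 with rescaled TPM. With a pseudocount of 0.1 the mean difference was -2.25 at D4, -2.61 at D10, -3.18 in sorted cells at D10, 2.48 for sorted D0 against the Lgr5 sort and -0.82 for sorted D10 against the Atoh1 sort. With rescaled TPM it was -1.75 at D4, -1.95 at D10 and -0.31 for sorted D10 against the Atoh1 sort. At D4 the count was 23 with a pseudocount of 0.1, 25 with no filter and 22 with rescaled TPM. At D10 these settings gave 37, 36 and 33. Of the genes called, 16 of 31 at D4 and 32 of 38 at D10 passed in every setting with all 18 libraries. Those not kept at D10 were Pcna, Rfc5, Pola2, Pold1, Pold3 and Chaf1b. With the replicate block, 36 genes passed at D4 (Orc6, Mcm7, Rfc5, Pola1 and Pola2 added), 4 for D4 against D2 (Tk1 added), 41 in sorted cells (Orc1 added), 35 for sorted D0 against the Lgr5 sort (Mcm7 added), 7 for sorted D10 against the Atoh1 sort (Mcm4 added) and 1 for sorted against unsorted D10 (Mcm4), and the pairing changed no other call. In the comparisons across series (sorted, unsorted, native) same-numbered libraries do not all share a date, so the block there rests on the number alone. For the 44 genes at D4, at D10 and in sorted cells at D10, no difference changed sign under these settings. The cause of these shifts was not tested. With 2 libraries a group and TPM that keep no depth, small differences were not detectable.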
